A study of Danio rerio with 3 samples.

Results

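The cell cycle genes described here are 35 listed genes of S phase and mitosis that are present among the 30579 gene symbols of the count files. They comprise 13 S phase members, 19 mitosis members and 3 other members, *ccnd1*, *hmgb2a* and *stmn1a*. The last 3 are not bound to a single phase. In these data *hmgb2a* was also counted in neurons that have left the cycle, and *ccnd1* in retinal pigmented epithelium. Neither of these genes alone marks dividing cells. Rows of the files that carry the same symbol with a numbered suffix were summed. Members were taken from the list by name, with no threshold on a measured value.

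A dividing cell first licenses its replication origins with the MCM helicase, then copies its DNA in S phase with the sliding clamp PCNA and a raised supply of nucleotides, and finally separates the copies in mitosis under cyclin A and B kinases. Transcripts of the S phase genes build up before and during replication, and those of the mitosis genes accumulate in G2 and are lost after division. In the adult zebrafish retina, divisions continue in progenitors of the ciliary margin and in rod progenitors of the outer nuclear layer, and Müller glia can re-enter the cycle after injury. Neurons such as horizontal, bipolar and amacrine cells have left the cycle.

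Single cells of whole adult retina were measured with droplet 3′ RNA sequencing in 3 libraries, each from a pool of 3 fish aged 4 to 8 months. P23H V3 and P23H V2 came from the uth4Tg line, in which a *rho* promoter drives mouse rhodopsin with the P23H mutation in rods, a model of retinitis pigmentosa. They were made with version 3 and version 2 of the chemistry. WT V3 came from fish of the AB strain with version 3, so that the transgene and the strain background cannot be told apart, and neither can P23H V2 be separated from its chemistry. There was 1 library per group, so no value below has a replicate check, and every interval is a 95% interval for counting error only.

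The kept cells numbered 15514 in P23H V3, 4671 in P23H V2 and 13554 in WT V3, with a median of 1244, 457 and 1220 unique molecular identifiers (UMIs) per cell. P23H V3 and WT V3 shared 64 cell barcodes, P23H V2 shared 1 with WT V3 and 0 with P23H V3, and of the 62 barcodes kept in both V3 libraries 4 were RPCs in P23H V3 and 0 in WT V3. Without the cells that carried one, the log2 ratio of the mitosis members in RPCs given further on was 0.90 in place of 0.91, and 20 in place of 22 members were called there. Cell types were named from marker genes after clustering both V3 libraries together with all listed cell cycle genes removed from the clustering genes, so the members did not place a cell directly. Genes that vary with them, such as tubulins and histones, remained. Retinal progenitor cells (RPCs) formed 1 cluster of 480 P23H V3 and 130 WT V3 cells. With both V3 libraries pooled, 14 of the 15 RPC markers, among them *her4.2*, *foxn4*, *ascl1a* and *notch1b*, led there over all other cells. They made up 3.09% of the P23H V3 cells (2.83 to 3.38%) and 0.959% of the WT V3 cells (0.802 to 1.14%), but this difference depended on how cells were assigned: by a marker score for each cell, RPCs numbered 265 in P23H V3 and 215 in WT V3. P23H V2, clustered by itself, held 385 RPCs, and no cluster of it could be named T lymphocytes or neurogenic progenitor cells (NPCs). Of these RPCs, 330 lay in a cluster in which only 4 of the 15 RPC markers led, with NPC markers next at 3. The cycle genes *stmn1a*, *nusap1*, *ube2c* and *aurkb* were among its leading genes. The other 55 lay in a cluster in which 11 RPC markers led.

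Over all cells, transcripts of the cycle were more abundant in the P23H libraries, and the mitosis members differed more than the S phase members. Levels are given as CPM, the UMIs of a gene scaled to 1000000 UMIs of the same cells. The mitosis members summed to 354 CPM in P23H V3 and 586 CPM in P23H V2, against 68.5 CPM in WT V3, and the log2 ratio of P23H V3 over WT V3 was 2.37 (2.30 to 2.43). The S phase members summed to 446 CPM in P23H V3 and 579.6 CPM in P23H V2, against 167 CPM in WT V3, a log2 ratio of 1.42 (1.37 to 1.46) for V3. A member was called higher or lower where its intervals in both libraries did not overlap and its ratio reached 1.5 either way, among genes with at least 20 UMIs over both. By this rule 32 of the 34 members with enough UMIs were higher in P23H V3 and 0 lower, where 22.3% of all 18436 genes were called higher and 17.2% lower. The 2 members not called were *ccne2*, cyclin E2, at 6.83 CPM in P23H V3 and 6.02 CPM in WT V3, and *ccnd1*, cyclin D1, at 31.7 CPM in P23H V3 and 30.2 CPM in WT V3. All 35 members together had a log2 ratio of 1.52 (1.51 to 1.54), but *hmgb2a*, which encodes a chromatin protein, alone gave 53597 of the 87544 member UMIs in P23H V3 and 21818 of the 31287 in WT V3. Without it the log2 ratio was 1.88 (1.85 to 1.92).

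**Figure D1:**
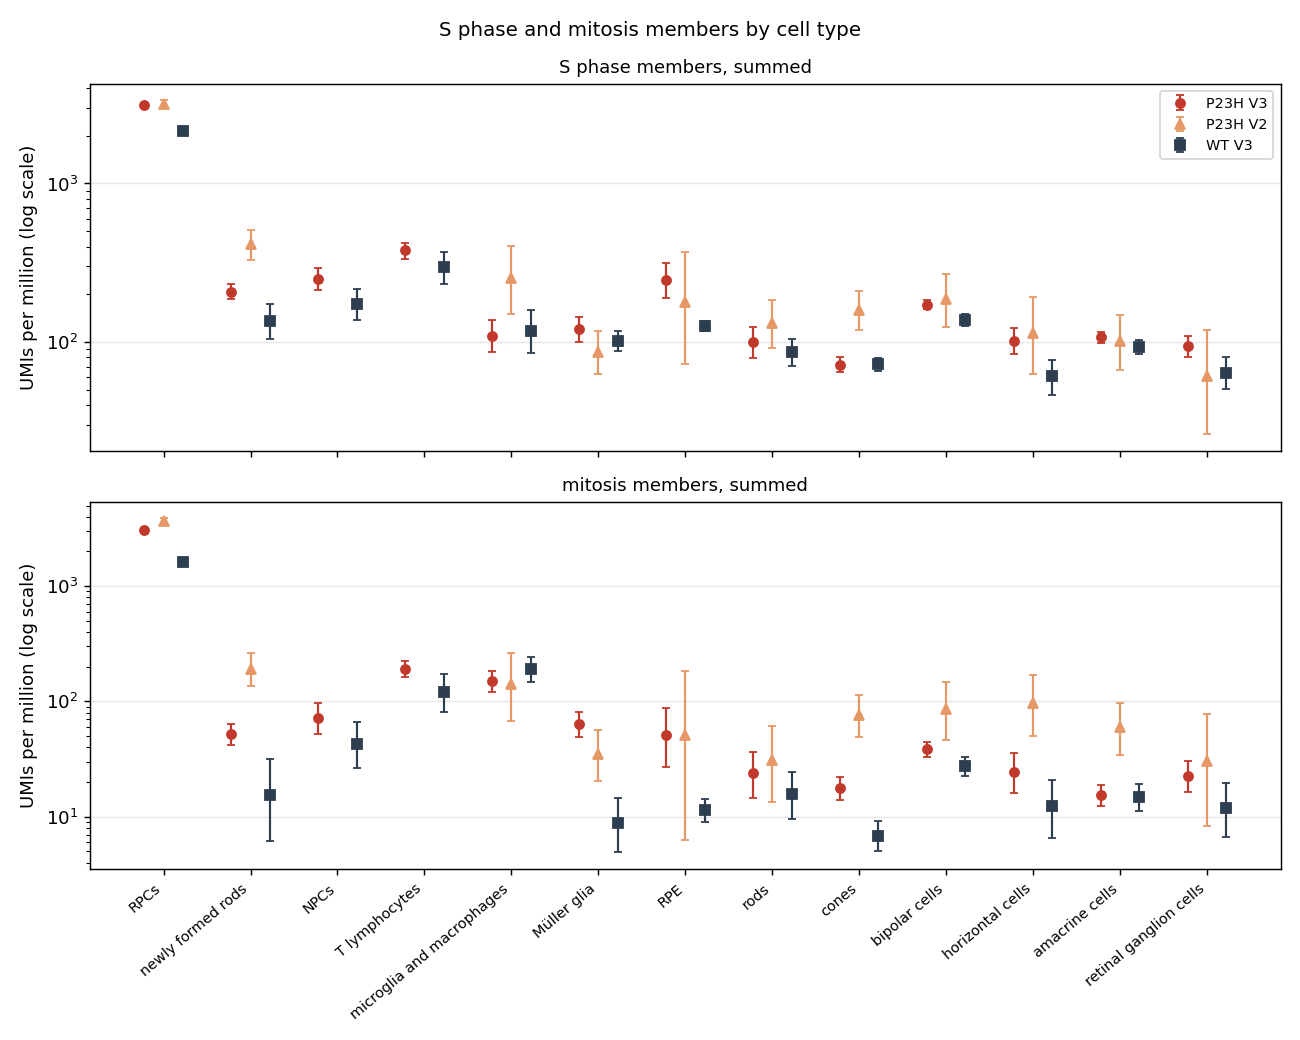
Summed level of the 13 S phase members (top) and the 19 mitosis members (bottom) in each cell type, in CPM on a log axis, for P23H V3, P23H V2 and WT V3. Points are single libraries and bars are 95% Poisson intervals; RPCs stand above every other type in each library, with mitosis members at 3053 CPM in P23H V3, 3664 CPM in P23H V2 and 1619.7 CPM in WT V3.

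Most of these transcripts lay in RPCs. The RPCs held 91.2% of all mitosis UMIs in P23H V3, 89.0% in P23H V2 and 75.0% in WT V3. For the S phase members the shares were 74.2% in P23H V3, 77.6% in P23H V2 and 40.7% in WT V3, so in WT most S phase UMIs came from other cells. The MCM subunits *mcm2*, *mcm4*, *mcm5* and *mcm6*, which form part of the replicative helicase, were about as confined to RPCs in WT V3 as in P23H V3. Their RPC shares were 78.6% to 89.8% in P23H V3 and 82.2% to 89.1% in WT V3, with *mcm4* and *mcm6* higher in WT V3. The other 2 subunits were less confined in WT, with 84.8% in P23H V3 and 65.9% in WT V3 for *mcm3* and 81.7% in P23H V3 and 54.1% in WT V3 for *mcm7*. The antigen of proliferation *mki67* had 93.6% of its UMIs in RPCs in P23H V3 and 89.5% in WT V3, and *ccna2*, cyclin A2, had 92.3% and 91.4% in the same libraries.

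A second group of members was counted widely outside RPCs, above all in WT. *pcna*, the replication clamp, which also serves DNA repair, had 57.9% of its UMIs in RPCs in P23H V3 and 24.9% in WT V3. *rrm1*, the large subunit of ribonucleotide reductase, had 57.6% in P23H V3 and 25.3% in WT V3, whereas *rrm2*, its small subunit, had 92.0% in P23H V3 and 71.7% in WT V3. The share in RPCs was 54.6% in P23H V3 and 13.1% in WT V3 for *hmgb2a*. For *ccne2* it was 59.9% in P23H V3 and 10.4% in WT V3, and for *ccnb3*, cyclin B3, 60.8% in P23H V3 and 14.7% in WT V3. The cells that held the rest are described further on. These shares also move with how many cells of each type a library held: retinal pigmented epithelium (RPE) gave 170 cells in P23H V3 and 1120 cells (8.26%) in WT V3.

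**Figure D2:**
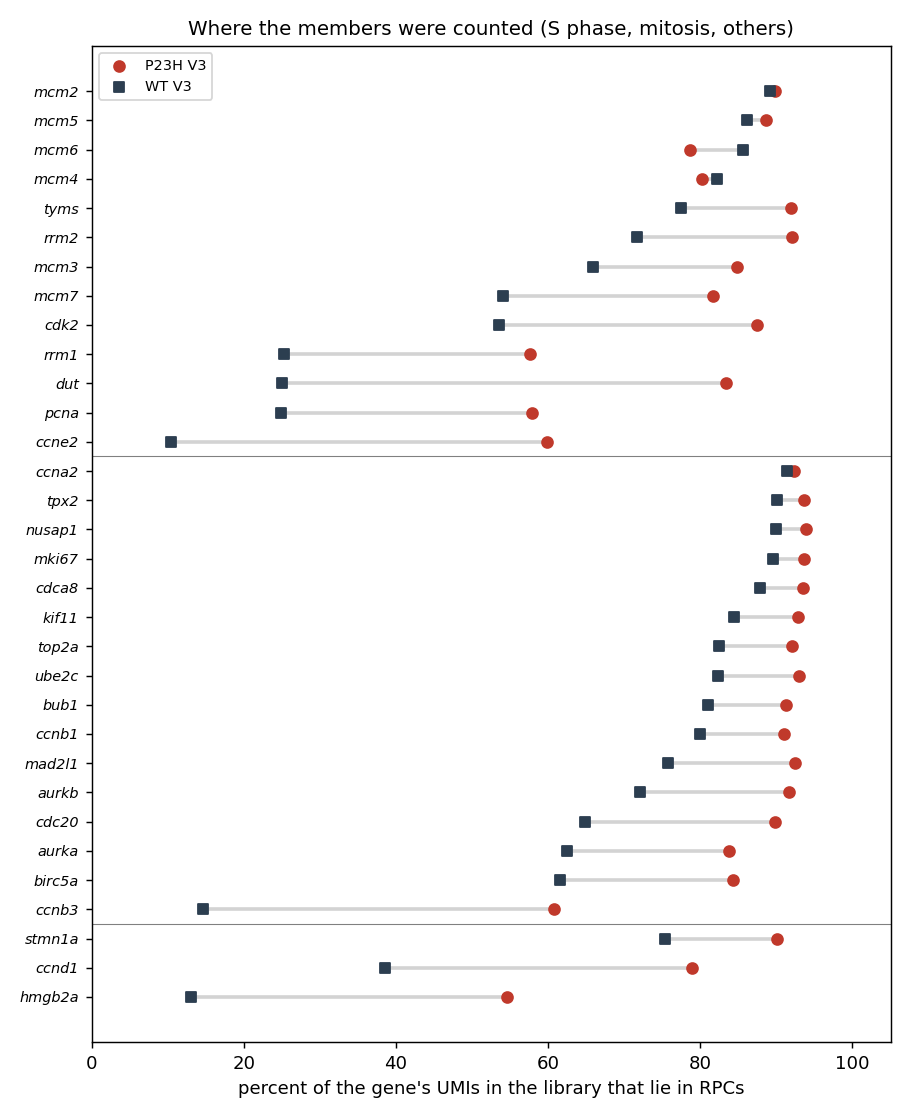
Percent of each member's UMIs in a library that lie in RPCs, for members with at least 20 UMIs in both V3 libraries, ordered within S phase, mitosis and other members by the WT V3 share. Circles are P23H V3 and squares WT V3; *mcm2* lies at 89.8% in P23H V3 and 89.1% in WT V3, while *ccne2* lies at 59.9% and 10.4% in the same libraries.

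Within RPCs, the summed S phase members were higher in P23H, but single genes went different ways. They summed to 3133 CPM in P23H V3 (10277 UMIs) and 3159.8 CPM in P23H V2, against 2143 CPM in WT V3 (2170 UMIs), a log2 ratio of 0.55 (0.48 to 0.62) for V3. Of the 13 members, 5 were called higher, 0 lower and 8 were not called, against 13.9% higher and 14.5% lower of all 9196 genes tested in RPCs. *rrm2* led, with 3367 UMIs (1026 CPM) in P23H V3 and 318 UMIs (862 CPM) in P23H V2, against 395 UMIs (390.1 CPM) in WT V3, a log2 ratio of 1.40 (1.24 to 1.55). Both P23H libraries lay well above WT for this gene.

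Other enzymes of the nucleotide supply differed from *rrm2*. Its partner *rrm1* stood at 143 CPM in P23H V3 and 138 CPM in P23H V2, against 131 CPM in WT V3, with a log2 ratio of 0.12 (-0.16 to 0.41). *tyms*, thymidylate synthase, stood at 44.8 CPM in P23H V3 and 65.0 CPM in P23H V2, against 54.3 CPM in WT V3. *dut*, the dUTPase that keeps uracil out of DNA, had 121 UMIs in P23H V3 and 7 in P23H V2, against 9 in WT V3, and was called higher at a log2 ratio of 2.05 (1.08 to 3.22), the highest ratio of any S phase member. The enzymes that make and guard the nucleotide pool thus did not share 1 ratio in RPCs.

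The 6 MCM subunits also split. *mcm7* had 1233 UMIs (376 CPM) in P23H V3 and 122 UMIs (331 CPM) in P23H V2, against 209 UMIs (206 CPM) in WT V3, and was called higher with a log2 ratio of 0.86 (0.65 to 1.08). *mcm6* had 337 UMIs (103 CPM) in P23H V3 and 47 UMIs (127 CPM) in P23H V2, against 154 UMIs (152 CPM) in WT V3, a log2 ratio of -0.57 (-0.85 to -0.28). *mcm2* had 334 UMIs (102 CPM) in P23H V3 and 51 UMIs (138 CPM) in P23H V2, against 147 UMIs (145 CPM) in WT V3, a log2 ratio of -0.51 (-0.80 to -0.22). Thus *mcm2* and *mcm6* lay below WT in P23H V3, with intervals apart but by less than the 1.5-fold limit, while *mcm7* lay above it. *mcm4* and *mcm5* were on the same side as *mcm2*, with log2 ratios of -0.54 (-0.85 to -0.22) and -0.40 (-0.71 to -0.09), and *mcm3* stood at 0.20 (-0.16 to 0.56). The intervals of the levels in P23H V3 and WT V3 were apart for *mcm4*, also within the 1.5-fold limit, and overlapped for *mcm5*. In P23H V2, *mcm4* and *mcm5* were level with or above WT, at log2 ratios of 0.01 (-0.51 to 0.51) and 0.26 (-0.23 to 0.73). There *mcm2* and *mcm6* lay on the lower side, at -0.07 (-0.56 to 0.40) and -0.26 (-0.76 to 0.22). Each of these intervals reached both sides of WT, so P23H V2 does not settle whether these subunits were lower.

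The clamp *pcna* had 3027 UMIs (923 CPM) in P23H V3 and 321 UMIs (869.9 CPM) in P23H V2, against 679 UMIs (671 CPM) in WT V3. Its log2 ratio of 0.46 (0.34 to 0.58) did not reach the 1.5-fold limit. *ccne2*, which with its kinase drives the entry into S phase, had 127 UMIs (38.7 CPM) in P23H V3 and 25 UMIs (67.7 CPM) in P23H V2, against 20 UMIs (19.8 CPM) in WT V3. The kinase *cdk2* had 68.3 CPM in P23H V3 and 111 CPM in P23H V2, against 36.5 CPM in WT V3. Both *ccne2* (log2 ratio 0.97, 0.28 to 1.73) and *cdk2* (0.90, 0.40 to 1.44) were called higher, with P23H V2 on the same side.

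The mitosis members in RPCs moved in 1 direction. They summed to 3053 CPM in P23H V3 (10016 UMIs) and 3664 CPM in P23H V2, against 1619.7 CPM in WT V3 (1640 UMIs), a log2 ratio of 0.91 (0.84 to 0.99). Of the 18 members with enough UMIs, 14 were called higher and 0 lower, against 13.9% and 14.5% of all 9196 genes. All 18 had a ratio above 1. *mki67* had 1280 UMIs (390.2 CPM) in P23H V3 and 108 UMIs (293 CPM) in P23H V2, against 179 UMIs (177 CPM) in WT V3, a log2 ratio of 1.14 (0.92 to 1.38). *top2a*, the topoisomerase that untangles chromosomes before they part, had 980 UMIs (299 CPM) in P23H V3 and 94 UMIs (255 CPM) in P23H V2, against 127 UMIs (125 CPM) in WT V3, a log2 ratio of 1.25 (0.98 to 1.53). For both genes the 2 P23H libraries lay above the upper bound of WT.

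*aurkb*, the Aurora kinase of the centromere, had 754 UMIs (229.8 CPM) in P23H V3 and 128 UMIs (347 CPM) in P23H V2, against 80 UMIs (79.0 CPM) in WT V3, and its log2 ratio of 1.54 (1.21 to 1.89) was the second highest among mitosis members. Its relative of the spindle poles, *aurka*, had 36.3 CPM in P23H V3 and 70.5 CPM in P23H V2, against 24.7 CPM in WT V3, and was not called, with a log2 ratio of 0.55 (-0.08 to 1.24). *ube2c*, the ubiquitin-conjugating enzyme of the anaphase-promoting complex, had 1229 UMIs (375 CPM) in P23H V3 and 173 UMIs (469 CPM) in P23H V2, against 181 UMIs (179 CPM) in WT V3, a log2 ratio of 1.07 (0.84 to 1.30). *cdc20*, which activates that complex, had a log2 ratio of 0.97 (0.62 to 1.33), and *mad2l1*, the checkpoint protein that restrains *cdc20*, had 264 CPM in P23H V3 and 412 CPM in P23H V2, against 120.5 CPM in WT V3.

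The cyclins were at different levels. *ccna2* had 789 UMIs (240.5 CPM) in P23H V3 and 112 UMIs (304 CPM) in P23H V2, against 138 UMIs (136 CPM) in WT V3, a log2 ratio of 0.82 (0.56 to 1.09). *ccnb1* had 67.7 CPM in P23H V3 and 81.3 CPM in P23H V2, against 35.6 CPM in WT V3, and was called higher. *ccnb2* had only 65 UMIs (19.8 CPM) in P23H V3 and 2 UMIs in P23H V2, against 11 UMIs (10.9 CPM) in WT V3, and was not called (log2 ratio 0.87, -0.07 to 1.94). The lowest ratio of the list was that of *nusap1*, a spindle-associated protein, with 1146 UMIs (349 CPM) in P23H V3 and 154 UMIs (417 CPM) in P23H V2, against 271 UMIs (268 CPM) in WT V3, a log2 ratio of 0.38 (0.19 to 0.58) that missed the 1.5-fold limit. The spindle and chromosome passenger genes *tpx2*, *kif11*, *birc5a* and *cdca8* lay between these, with log2 ratios of 0.59 to 0.67, and were called higher.

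3 mitosis members are listed in 2 rows of the count files, and their values are uncertain because reads that fit both copies may not have been counted. *plk1*, the Polo kinase, had 2 UMIs in P23H V3, 1 in P23H V2 and 0 in WT V3 over all cells, so no level can be read from it. *cdk1*, the main mitotic kinase, had 66 UMIs in P23H V3 and 33 in P23H V2, against 3 in WT V3, in RPCs, a log2 ratio of 2.76 (1.15 to 5.08) that was the highest of all members. *ccnb3* had 63.7 CPM in P23H V3 and 97.6 CPM in P23H V2, against 31.6 CPM in WT V3, in RPCs. Its 2 rows behaved differently between the lines: over all cells the plain row held 337 UMIs in P23H V3 and 113 in WT V3, while the suffixed row held 7 UMIs in P23H V3 and 104 in WT V3. The *ccnb3* difference in RPCs is therefore larger on the plain row, with 205 UMIs in P23H V3 and 17 in WT V3, and turns round on the other, with 4 UMIs in P23H V3 and 15 in WT V3.

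**Figure D3:**
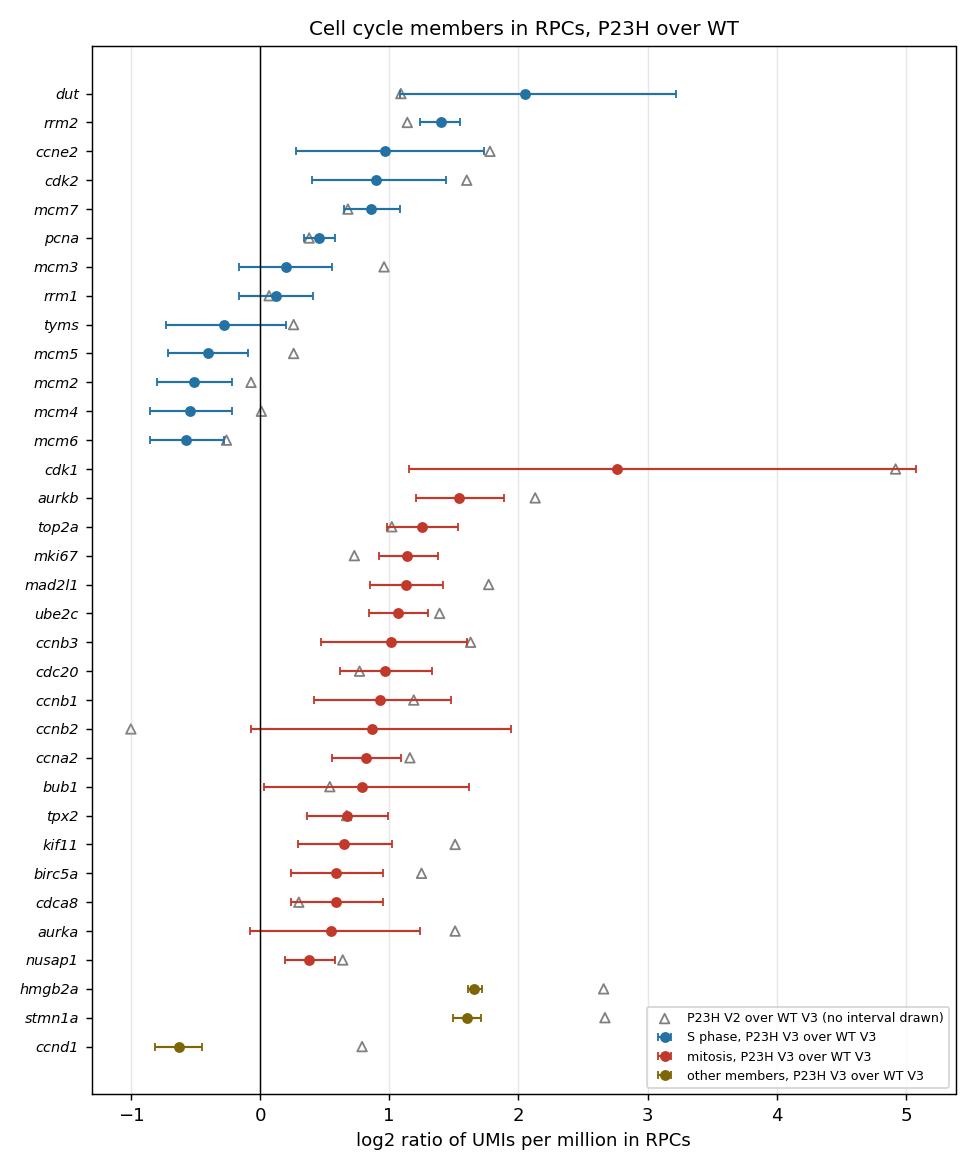
Log2 ratio of each member's level in RPCs for the 34 members with at least 20 UMIs over both V3 libraries. Filled circles are P23H V3 over WT V3 with exact 95% intervals, coloured by list, and open triangles are P23H V2 over WT V3; all 18 mitosis members lie right of 0 for V3, while *mcm2*, *mcm4*, *mcm5*, *mcm6*, *tyms* and *ccnd1* lie left of it.

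The 3 other members held the largest UMI numbers and did not go the same way. *hmgb2a* had 29282 UMIs (8926 CPM) in P23H V3 and 6578 UMIs (17826 CPM) in P23H V2, against 2856 UMIs (2821 CPM) in WT V3, a log2 ratio of 1.66 (1.61 to 1.72). *stmn1a*, stathmin, which destabilises microtubules, had 7333 UMIs (2235 CPM) in P23H V3 and 1737 UMIs (4707 CPM) in P23H V2, against 747 UMIs (738 CPM) in WT V3, a log2 ratio of 1.60 (1.49 to 1.71). *ccnd1*, the cyclin that couples growth signals to the G1 phase, was the only member called lower, with 776 UMIs (237 CPM) in P23H V3 against 371 UMIs (366 CPM) in WT V3, a log2 ratio of -0.63 (-0.81 to -0.45). In P23H V2 it stood at 634 CPM (234 UMIs), above WT V3, so its direction differed between the P23H libraries.

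In all, 21 of the 34 members tested in RPCs were called higher in P23H V3, 1 lower and 12 were not called, against a background of 13.9% called higher and 14.5% lower among 9196 genes. The median log2 ratio was 0.84 over the members and 0.04 over all genes. For P23H V2 over WT V3, which uses the same WT library, 22 of 32 members were called higher and 0 lower, against 23.3% higher and 14.3% lower of 5815 genes. Without *hmgb2a*, the members together had a log2 ratio of 0.83 (0.79 to 0.87) in RPCs for V3, and 1.19 (1.16 to 1.23) with it.

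Other genes of the cycle were followed in RPCs through 4 further lists. Their counts stand against 13.9% called higher and 14.5% lower among all 9196 genes. Of 46 further mitosis genes with enough UMIs, 25 were called higher in P23H V3 and 1 lower, with a median log2 ratio of 0.96. The gene of this list with most UMIs was *hmgb2b*, a second copy of the HMGB2 gene, at 4312 CPM in P23H V3 and 7986 CPM in P23H V2, against 2152 CPM in WT V3. Next came *tuba8l*, a tubulin, at 296 CPM in P23H V3 and 313 CPM in WT V3, and *cenpf*, a kinetochore protein, at 242 CPM in P23H V3 and 134 CPM in WT V3. Of 39 further S phase genes, 11 were called higher and 1 lower, with a median of 0.55. The single-strand binding subunits *rpa3* and *rpa2* were not called, with log2 ratios of 0.44 (0.22 to 0.67) and 0.49 (0.26 to 0.72), and *slbp*, which binds histone mRNA, was called higher at 0.73 (0.45 to 1.02). As with the members, the median of the mitosis genes was the higher one.

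The lists of the G1 phase and of the exit from the cycle looked different. Of 11 G1 regulators, 3 were called higher and 3 lower in P23H V3, against 13.9% and 14.5% of all 9196 genes. The MYC transcription factors split, with *myca* at 749.5 CPM in P23H V3 against 363 CPM in WT V3, *mycb* at 341 CPM in P23H V3 against 720.0 CPM in WT V3, and *mycn* at 29.9 CPM in P23H V3 against 107 CPM in WT V3. *myca* is also on the NPC marker list. Of 16 inhibitors and exit genes, 1 was called higher and 9 lower, against the same shares over all genes, with a median log2 ratio of -0.85. The antiproliferative gene *btg2* had 315 CPM in P23H V3 and 152 CPM in P23H V2, against 1567 CPM in WT V3, and its relative *btg1* had 165 CPM in P23H V3 and 133 CPM in P23H V2, against 446 CPM in WT V3. *gadd45ba*, a gene of the growth arrest and DNA damage response, had 248 CPM in P23H V3 and 81.3 CPM in P23H V2, against 989 CPM in WT V3. All 3 lay lower in both P23H libraries than in WT.

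The balance of mitosis to S phase UMIs in RPCs was 0.975 in P23H V3 and 1.16 in P23H V2, against 0.756 in WT V3. The log2 ratio of this balance, P23H V3 over WT V3, was 0.37 (0.27 to 0.47). Over all cells the balance was 0.793 in P23H V3 and 1.01 in P23H V2, against 0.411 in WT V3. The ratio compares 2 sums of genes and does not give the number of cells in each phase.

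Other markers moved along with these sums. The RPC markers themselves summed to 2896 CPM in P23H V3 and 4458 CPM in P23H V2, against 6716 CPM in WT V3, with 2 of the 15 higher in P23H V3 and 0 at 0 in either V3 library. The 8 markers of newly formed rods summed to 6565 CPM in P23H V3 and 10149 CPM in P23H V2, against 6107 CPM in WT V3. Of these 8, 7 were higher in P23H V3 than in WT V3. Their sum lay above that of the RPC markers in both P23H libraries and below it in WT V3. The 8 Müller glia markers summed to 496 CPM in P23H V3 and 2797 CPM in P23H V2, against 1994 CPM in WT V3, and all 8 were lower in P23H V3 than in WT V3. RPE markers stood at 55.2 CPM in P23H V3 and 971 CPM in WT V3, and the median depth of an RPC was 6004 UMIs in P23H V3, 819 in P23H V2 and 5146 in WT V3. The part of these markers and of depth in the member ratios was not tested.

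The mitosis members were also counted cell by cell in the RPC cluster. At least 3 of the 19 mitosis members were found in 304 of 480 RPCs in P23H V3 (63.3%, 58.8 to 67.7%) and in 151 of 385 in P23H V2 (39.2%, 34.3 to 44.3%), against 36 of 130 in WT V3 (27.7%, 20.2 to 36.2%). No mitosis member was found in 137 RPCs of P23H V3 and in 78 of WT V3. Exactly 2 or 3 members were found in 36 cells of P23H V3, 86 of P23H V2 and 7 of WT V3, so the P23H V2 share rested more on cells near the limit. With each cell thinned to 1000 UMIs, which left out 12 P23H V3 and 4 WT V3 cells below that depth, the shares were 35.7% (31.3 to 40.2%) in P23H V3 and 19.8% (13.3 to 27.9%) in WT V3. At equal depth the intervals of the V3 libraries remained apart, with 100 P23H V3 and 8 WT V3 cells at exactly 2 or 3 members.

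**Figure D4:**
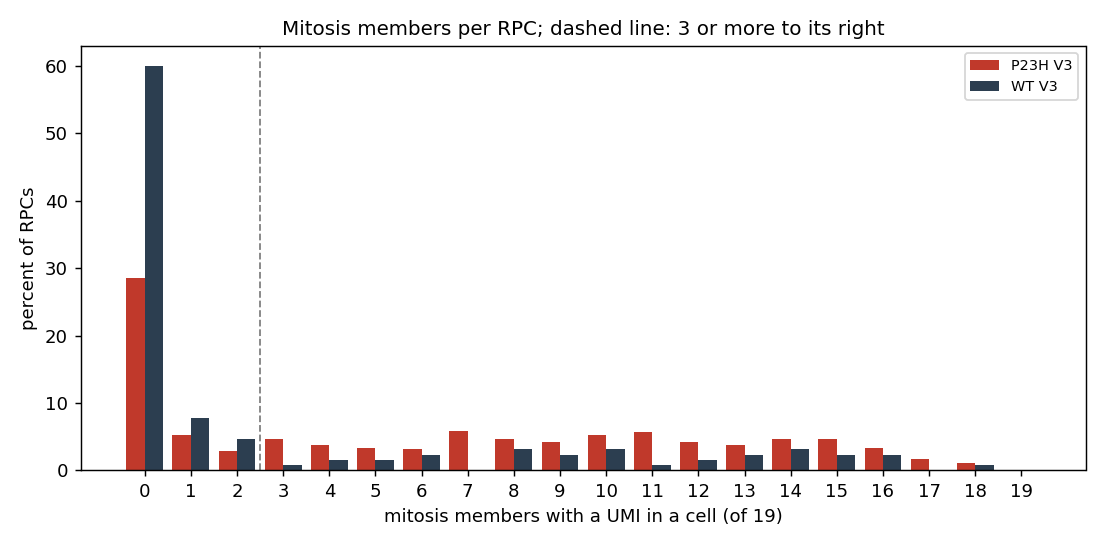
Percent of RPCs (vertical axis) by the number of the 19 mitosis members with at least 1 UMI in the cell (horizontal axis), for P23H V3 (480 cells) and WT V3 (130 cells). Cells right of the dashed line, with 3 or more members, are 63.3% of the P23H V3 and 27.7% of the WT V3 RPCs, and the bar at 0 holds 137 cells of P23H V3 and 78 of WT V3.

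For comparison, neurons that do not divide gave the background of this measure. At least 3 mitosis members were found in 0 of 499 horizontal cells of P23H V3, which, at a limit of 3 counts, allows a share of up to 0.601%, and in 0 of 475 of WT V3, which allows up to 0.632%. Bipolar cells gave 0 of 5154 in P23H V3 and 0 of 3675 in WT V3, and amacrine cells 3 of 2671 in P23H V3 and 0 of 1700 in WT V3. The median depth of horizontal cells was 1838 UMIs in P23H V3 and 2028 in WT V3. Summed mitosis members stood at 24.3 CPM in horizontal cells of P23H V3 and 12.3 CPM in WT V3, and at 97.8 CPM in P23H V2. In bipolar cells they stood at 38.5 CPM in P23H V3, 27.3 CPM in WT V3 and 86.5 CPM in P23H V2. In amacrine cells they stood at 15.4 CPM in P23H V3, 14.8 CPM in WT V3 and 59.9 CPM in P23H V2. A level within the range of these neurons in the same library is not above background. Much of the bipolar level in the V3 libraries was *ccnb3*, with counts given further on, so a background set by bipolar cells is uncertain.

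The RPCs that carried at least 3 mitosis members were then set side by side between libraries. They were chosen by detected mitosis members, so their mitosis level is a description only. In them the S phase members stood at 3484 CPM (3411 to 3559) in P23H V3 and 3514 CPM (3329 to 3707) in WT V3, and the mitosis members at 4033 CPM in P23H V3 and 4226 CPM in WT V3. In RPCs with 1 or 2 mitosis members, 39 cells of P23H V3 and 16 of WT V3, the S phase members stood at 4656 CPM (4394 to 4930.3) in P23H V3 and 1165 CPM (1009.9 to 1338) in WT V3. In RPCs with no mitosis member, 137 cells of P23H V3 and 78 of WT V3, they stood at 904 CPM (828 to 987) in P23H V3 and 1369 CPM (1264 to 1480.0) in WT V3. By these counting intervals, the S phase level of the mitosis-rich cells overlapped between the libraries, while it was higher in P23H V3 among cells with 1 or 2 mitosis members and lower in P23H V3 among cells with none. The intervals do not cover variation between cells, and the WT V3 level at 1 or 2 mitosis members rested on 201 UMIs of 16 cells. With the cells of 1 or 2 and of no mitosis members joined, the S phase level was 2067 CPM in P23H V3 and 1313 CPM in WT V3. P23H V2, in which fewer UMIs per cell were counted, did not share this pattern: its S phase level was 2159 CPM (1952 to 2382) in the mitosis-rich cells, below WT V3, 4238 CPM (3856 to 4648) in cells with 1 or 2 mitosis members and 4029 CPM (3599 to 4497) in cells with none, both above WT V3. The Müller glia markers in the cells with no mitosis member stood at 1971 CPM in P23H V3 and 3163 CPM in WT V3.

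The differences of single members changed within the mitosis-rich RPCs. *hmgb2a* stood at 10833 CPM in P23H V3 and 5724 CPM in WT V3, a smaller ratio than the 3.16-fold of all RPCs, and *stmn1a* at 2598 CPM in P23H V3 and 1419 CPM in WT V3, against 3.03-fold in all RPCs. *rrm2* stood at 1264 CPM (1219.9 to 1309) in P23H V3 and 940.1 CPM (845 to 1043) in WT V3, against 2.63-fold in all RPCs. The intervals overlapped for *mcm7*, at 389 CPM in P23H V3 and 317 CPM in WT V3, and for *pcna*, at 969 CPM in P23H V3 and 1034 CPM in WT V3. The subunits *mcm2* to *mcm6* summed to 484 CPM (457 to 512) in P23H V3 and 744 CPM (659.7 to 835) in WT V3, and *ccnd1* stood at 269 CPM in P23H V3 and 594 CPM in WT V3. Among cells with 1 or 2 mitosis members the order of the MCM sum turned round, with 940.0 CPM (824 to 1068) in P23H V3 and 400.1 CPM (311 to 506) in WT V3. That WT V3 value rested on 69 UMIs of 16 cells. In P23H V2 the mitosis-rich cells had 638 CPM for *mcm2* to *mcm6* and 638 CPM for *ccnd1*. The RPC markers stood at 2981 CPM in P23H V3 and 10967 CPM in WT V3, and the Müller glia markers at 131 CPM in P23H V3 and 212 CPM in WT V3, in the mitosis-rich cells. This split was made after the values of the whole cluster were known.

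**Figure D5:**
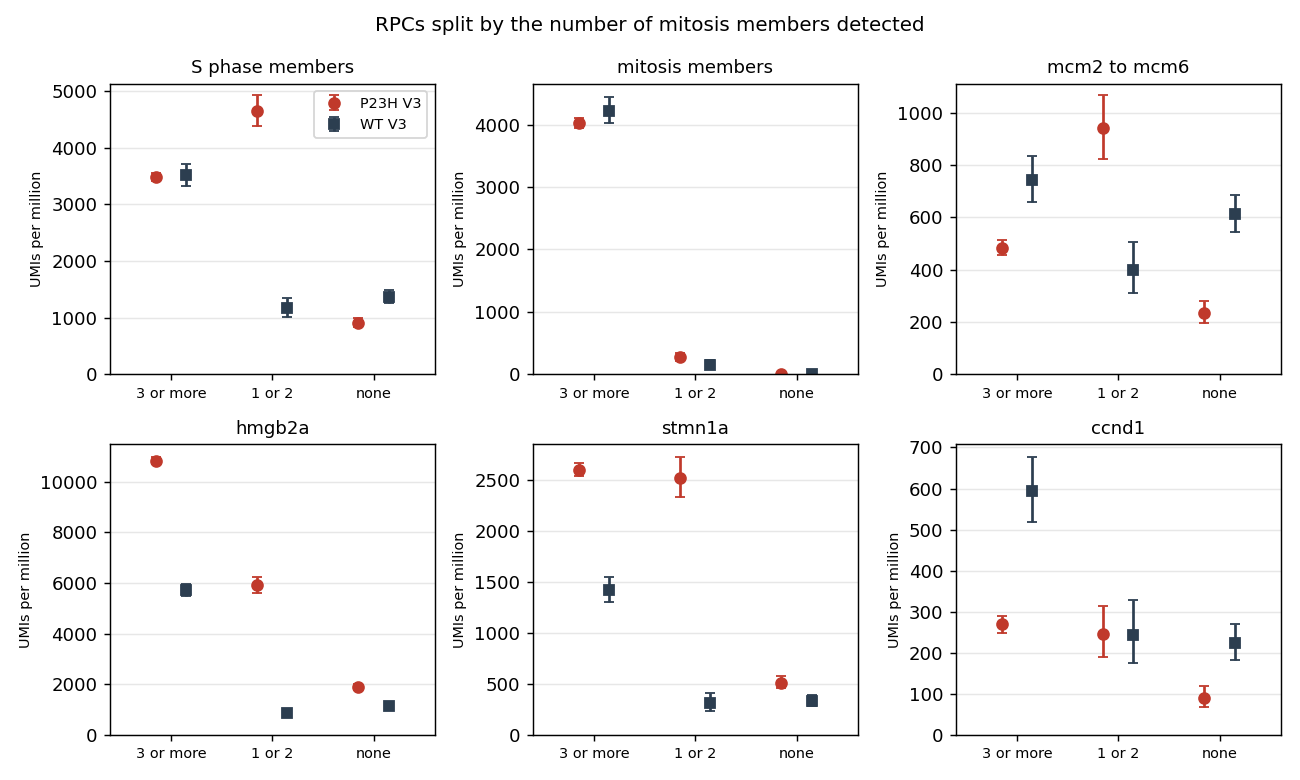
Level in CPM (vertical axes, from 0) of the S phase and mitosis members, of *mcm2* to *mcm6* summed and of *hmgb2a*, *stmn1a* and *ccnd1* in RPCs with 3 or more, with 1 or 2 and with no mitosis members, for P23H V3 and WT V3. Points are single libraries with 95% Poisson intervals; in the mitosis-rich cells the S phase sums are 3484 CPM in P23H V3 and 3514 CPM in WT V3, whereas *ccnd1* is 269 CPM in P23H V3 and 594 CPM in WT V3.

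Newly formed rods, the young photoreceptors that carry *fabp7a*, *neurod1* and *crx*, numbered 573 in P23H V3, 471 in P23H V2 and 152 in WT V3. The S phase members summed to 208 CPM (360 UMIs) in P23H V3 and 412 CPM in P23H V2, against 135 CPM (62 UMIs) in WT V3, and the mitosis members to 52.0 CPM (90 UMIs) in P23H V3 and 193 CPM in P23H V2, against 15.3 CPM (7 UMIs) in WT V3. The ratios of P23H V3 over WT V3 were 0.62 (0.23 to 1.03) and 1.77 (0.66 to 3.12) on the log2 scale. 6 cells of P23H V3 and 0 of WT V3 had at least 3 mitosis members, and those 6 held 42 of the 90 mitosis UMIs. Outside those 6 cells the level was 28.0 CPM in P23H V3. This value and the 15.3 CPM of WT V3 were not above the 38.5 CPM and 27.3 CPM of bipolar cells in the same libraries. In P23H V2, 2 cells had at least 3 mitosis members, and outside them the level was 148 CPM (29 UMIs). It lay above the levels of bipolar, amacrine and horizontal cells in that library. The highest of these was 97.8 CPM in horizontal cells, with an interval of 50.5 to 171 CPM that reached past 148 CPM.

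The leading members here were *hmgb2a*, at 3557 CPM in P23H V3 and 6904 CPM in P23H V2, against 1986 CPM in WT V3, and *stmn1a*, at 122 CPM in P23H V3 and 666 CPM in P23H V2, against 67.7 CPM in WT V3. Both were called higher in P23H V3. The third was *mcm6*, with 40 UMIs (23.1 CPM) in P23H V3 against 2 UMIs (4.37 CPM) in WT V3, where *mcm7*, with 50.8 CPM in P23H V3 and 34.9 CPM in WT V3, was not called. *ccne2* had 43 UMIs (24.8 CPM) in P23H V3 and 6 UMIs (30.5 CPM) in P23H V2, against 3 UMIs (6.55 CPM) in WT V3, and 20.3% of all *ccne2* UMIs of P23H V3 lay in these cells. *ccnd1* stood at 45.1 CPM in P23H V3 and 214 CPM in P23H V2, against 26.2 CPM in WT V3, and *pcna* at 37.5 CPM in P23H V3 and 32.8 CPM in WT V3. In all, 3 of 10 members were called higher and 0 lower, against 10.1% and 8.30% of 6858 genes. Rod markers stood at 5888 CPM in P23H V3 and 20328 CPM in WT V3 in this cluster, and their part in these values was not tested.

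T lymphocytes numbered 352 in P23H V3 and 122 in WT V3. They had the S phase sum nearest to that of RPCs, with 378 CPM (286 UMIs) in P23H V3 and 295 CPM (73 UMIs) in WT V3, a log2 ratio of 0.36 (-0.02 to 0.75). The mitosis members stood at 192 CPM (145 UMIs) in P23H V3 and 121 CPM (30 UMIs) in WT V3, a log2 ratio of 0.66 (0.09 to 1.28). At least 3 mitosis members were found in 7 cells of P23H V3 (1.99%, 0.803 to 4.05%) and 3 of WT V3 (2.46%, 0.510 to 7.02%), and these cells held 130 of the 145 mitosis UMIs in P23H V3 and 25 of the 30 in WT V3. The intervals of these shares overlapped. Of these cells, 2 of the 7 in P23H V3 and 2 of the 3 in WT V3 had 0 of the 8 T lymphocyte markers, and 1 of the 3 in WT V3 had 5 of the 15 RPC markers. That WT V3 cell also held 52 of the 73 S phase UMIs, so the S phase sum of WT V3 rested mostly on it. In P23H V3, 1 of the 7 cells held 90 of the 286 S phase UMIs.

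Among single members in T lymphocytes, *hmgb2a* had 1143 CPM in P23H V3 and 633 CPM in WT V3, and *stmn1a* had 112 UMIs (148 CPM) in P23H V3 and 4 UMIs (16.1 CPM) in WT V3. *mki67* had 22 UMIs in P23H V3 and 0 in WT V3, at least 2.40-fold higher when WT is set to a floor of 3 UMIs. These 3 of 10 members were called higher and 0 lower, against 7.31% and 7.07% of 4187 genes. *pcna* stood at 129.5 CPM in P23H V3 and 141 CPM in WT V3, *rrm2* at 112 CPM in P23H V3 and 88.8 CPM in WT V3, and *top2a* at 33.0 CPM in P23H V3 and 32.3 CPM in WT V3, with none of these 3 called. T lymphocyte markers summed to 2308 CPM in P23H V3 and 1626 CPM in WT V3 in this cluster. Microglia markers stood above them, at 2634 CPM in P23H V3 and 7782 CPM in WT V3. Of these, 1 marker gave 2441 CPM in P23H V3 and 7399 CPM in WT V3. Rod markers stood at 1907 CPM in P23H V3 and 9779 CPM in WT V3.

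Microglia and macrophages were the type in which the mitosis members stood above the S phase members in both V3 libraries, with a balance of 1.36 in P23H V3 and 1.62 in WT V3, but not in P23H V2, where it was 0.556 (0.229 to 1.27). They had 149 CPM of mitosis members in P23H V3 and 142 CPM in P23H V2, against 190.2 CPM in WT V3, a log2 ratio of -0.35 (-0.81 to 0.12). A single cell of the 126 in P23H V3 held 92 of the 98 mitosis UMIs, with 15 of the 19 members detected and 0 S phase UMIs. In WT V3, 1 cell of 67 held 62 of the 68 mitosis UMIs, with 13 members and 0 S phase UMIs. Each carried 3 of the 8 microglia markers and 0 of the 15 RPC markers. The level of mitosis genes in microglia thus rested on 1 cell per V3 library.

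Müller glia, 351 cells in P23H V3, 892 in P23H V2 and 393 in WT V3, expressed few cycle genes. Their S phase members summed to 121 CPM in P23H V3 and 86.5 CPM in P23H V2, against 102 CPM in WT V3, a log2 ratio of 0.25 (-0.10 to 0.59). Of the 122 S phase UMIs in P23H V3 and 174 in WT V3, *pcna* gave 67 in P23H V3 and 119 in WT V3, at 66.4 CPM in P23H V3 and 69.6 CPM in WT V3, which did not differ beyond its interval (-0.52 to 0.38). The mitosis members stood at 63.4 CPM (64 UMIs) in P23H V3, with 17 UMIs in P23H V2, against 8.77 CPM (15 UMIs) in WT V3, a log2 ratio of 2.85 (2.03 to 3.77). 3 cells of the 351 held 53 of those 64 UMIs, with 11, 10 and 4 mitosis members, and each had 7 of the 8 Müller glia markers. They also had 5, 1 and 4 of the 15 RPC markers in the same order, and the first held 11355 UMIs, where the median of Müller glia in P23H V3 was 2119. Outside cells with at least 3 members, the level was 11.1 CPM in P23H V3 and 7.04 CPM in WT V3. In P23H V2, 0 of 892 Müller glia had at least 3 mitosis members. The level given by their 17 UMIs was below the 59.9 CPM of amacrine cells in that library. The 8.77 CPM of WT V3 was below the 12.3 CPM of horizontal cells in WT V3. The P23H V2 and WT V3 levels were thus not above background.

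For the members with most UMIs in Müller glia, *hmgb2a* had 501 CPM in P23H V3 and 585 CPM in P23H V2, against 237 CPM in WT V3. *stmn1a* had 32 UMIs (31.7 CPM) in P23H V3 and 25 UMIs (51.5 CPM) in P23H V2, against 5 UMIs (2.92 CPM) in WT V3. *rrm2* had 21 UMIs in P23H V3 and 10 in WT V3. These 3 of the 6 members with enough UMIs were called higher and 0 lower, against 9.16% and 8.63% of 8980 genes. Horizontal cells held more *hmgb2a* than Müller glia, with 704 CPM in P23H V3 and 428 CPM in WT V3. The *hmgb2a* level of Müller glia was thus not above background, and *hmgb2a* was called higher in horizontal cells too. *ccnd1* stood at 33.7 CPM in P23H V3 and 39.2 CPM in WT V3, and *rrm1* at 20.8 CPM in P23H V3 and 18.7 CPM in WT V3, neither of them called. The share of Müller glia among all cells was 2.26% in P23H V3 and 19.1% in P23H V2, against 2.90% in WT V3.

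Some members were also counted in RPE and bipolar cells. The RPE cells of P23H V3 held bipolar cell markers at 12925 CPM and RPE markers at 12396 CPM. In WT V3 these stood at 969 CPM and 19699.8 CPM, and their part in the RPE levels was not tested. In RPE, *ccne2* had 5 UMIs (19.6 CPM) in P23H V3 and 121 UMIs (18.9 CPM) in WT V3, and its WT V3 level there was close to the 19.8 CPM of WT V3 RPCs. RPE also held *ccnd1*, with 8 UMIs (31.3 CPM) in P23H V3 and 407 UMIs (63.6 CPM) in WT V3, or 42.2% of all *ccnd1* UMIs of that library. It was not called in RPE. The mitosis members in RPE stood at 50.9 CPM (13 UMIs) in P23H V3 and 11.4 CPM (73 UMIs) in WT V3, of which *ccnb3* gave 4 UMIs in P23H V3 and 51 in WT V3. In bipolar cells *ccnb3* had 82 UMIs (17.1 CPM) in P23H V3 and 73 UMIs (18.6 CPM) in WT V3, while *ccnb1* had 1 UMI in P23H V3 and 2 in WT V3 and *ccnb2* had 0 in both. All mitosis members together had 185 UMIs in bipolar cells of P23H V3 and 107 in those of WT V3. The rows of *ccnb3* went opposite ways in bipolar cells. The plain row held 80 UMIs in P23H V3 and 31 in WT V3, and the suffixed row 2 and 42. In RPE the plain row held 4 UMIs in P23H V3 and 30 in WT V3, and the suffixed row 0 and 21. Bipolar cells also held *pcna* at 136 CPM in P23H V3 and 108 CPM in WT V3 and *hmgb2a* at 1434 CPM in P23H V3 and 1012 CPM in WT V3. Horizontal cells were lower, with *pcna* at 72.1 CPM in P23H V3 and 39.7 CPM in WT V3 and *hmgb2a* at 704 CPM and 428 CPM. The S phase sum was 172 CPM in P23H V3 and 138 CPM in WT V3 in bipolar cells, and 102 CPM and 60.6 CPM in horizontal cells.

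NPCs, cells with *marcksl1a*, *marcksl1b* and *sox4a*, numbered 533 in P23H V3 and 320 in WT V3 and had S phase sums of 251 CPM in P23H V3 and 174 CPM in WT V3. Their mitosis sums were 72.1 CPM (44 UMIs) in P23H V3 and 42.9 CPM (20 UMIs) in WT V3, a log2 ratio of 0.75 (-0.04 to 1.59). *pcna* had 99.9 CPM in P23H V3 and 45.1 CPM in WT V3, and *mcm7* had 65.5 CPM in P23H V3 and 62.2 CPM in WT V3, where the other MCM subunits had at most 6 UMIs in either library. At least 3 mitosis members were found in 6 NPCs of P23H V3 and 0 of WT V3, where a count of 0 among 320 cells allows up to 0.938%. Those 6 held 22 of the 44 mitosis UMIs and had 0 to 3 of the 8 NPC markers. Outside them the level was 36.6 CPM in P23H V3, not above the 38.5 CPM of bipolar cells. The 42.9 CPM (26.2 to 66.3) of WT V3 was above the 27.3 CPM (22.4 to 33.0) of bipolar cells, with overlapping intervals. Much of these bipolar levels was *ccnb3*, which gave only 2 UMIs in NPCs of P23H V3 and 3 in those of WT V3. Whether NPCs lay above background without *ccnb3* was not tested. The *pcna* levels of NPCs lay below those of bipolar cells in both V3 libraries. In cones, the mitosis sums were 17.6 CPM in P23H V3 and 6.86 CPM in WT V3, and 1 cell of 1144 held 33 of the 78 mitosis UMIs of P23H V3.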

How the data were processed

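The deposited matrices hold UMI counts per gene and cell barcode from droplet 3′ libraries. Per the labels, the authors used Cell Ranger 3.1.2.0, FastQC 0.11.9, R 3.6.1 and Seurat 3.1.1 with genome build GRCz11. Cells with at least 200 genes, at most 4700 (P23H) or 6000 (WT) genes and at most 10% mitochondrial UMIs were kept, which removed 3285 barcodes of P23H V2 for few genes. Both V3 libraries were integrated and clustered in Seurat 5.3.0 (R 4.3.3) at resolution 0.8 on 2000 variable genes, after 179 listed cell cycle genes had been left out. P23H V2 was clustered separately. Clusters were named from fixed markers. A cluster whose profile correlated above 0.9 with the rest was left unnamed as mixed, a limit set after the clusters were seen, and unnamed cells were 7.87% in P23H V3, 3.04% in P23H V2 and 14.4% in WT V3. Scrublet called 0 doublets in P23H V3, 3 in P23H V2 and 0 in WT V3, too few to be used as a filter, so none was removed. Counts were summed per library and type and scaled to CPM. Intervals at 95% were exact (Poisson, conditional binomial for ratios, Clopper-Pearson for shares), except those of the balance of mitosis to S phase and of ratios of shares, which used a normal approximation on the log scale, and a count of 0 was given a limit of 3 counts, in a share or in a fold. No test between conditions was possible with 1 library per group.

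Members named in full were those with most UMIs in each list, the highest and lowest ratios, and genes that the study names. The members and lists were chosen with earlier results of these data known. The scripts were tested on simulated counts. Promoter motifs were not analysed here, nor was a WT library of version 2. Python 3.11.15, SciPy 1.17.1 and edgeR 4.0.16 (TMM factors only) were used.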

Additional observations from a re-analysis of the deposited data

Results flagged for a closer look

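In RPCs, the log2 ratio of *ccnd1* was -0.63 for P23H V3 over WT V3 and 0.79 for P23H V2 over WT V3, so the P23H libraries lay on opposite sides of the same WT library. Both ratios share WT V3, and the difference between them was not tested. The P23H libraries differ in chemistry and depth, with a median of 6004 UMIs per RPC in P23H V3 and 819 in P23H V2, and the part of either was not tested.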

How the results depend on the processing

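Of 148 values recomputed for 10 results, 115 stayed within the set limits, 33 moved and 0 changed direction. Some of the 115 could not move. The whole-library ratio uses no cell types, so the settings of clustering and cell assignment left it at 1.52. TMM factors and dropping the 20 top genes cancel out of the balance of mitosis to S phase. They also do not enter the share of RPCs with at least 3 mitosis members. All log2 ratios here are P23H over WT V3. For all members over the whole library (1.52), the ratio was 1.60 with at least 500 genes per cell, 1.37 with TMM factors, 1.46 with the 20 top genes dropped from the totals, 1.57 after free RNA was subtracted, 2.66 with P23H V2 and 1.88 without *hmgb2a*. For all members in RPCs (1.19), it was 1.05 when each cell was assigned by marker score, 1.33 with TMM factors, 1.23 with the 20 genes dropped, 1.1 after subtraction, 1.96 with P23H V2 and 0.83 without *hmgb2a*. In RPCs the S phase members (0.55) gave 0.68 with TMM factors and 0.45 after subtraction, and the mitosis members (0.91) gave 0.69 by marker score, 1.05 with TMM factors, 0.81 after subtraction and 1.18 with P23H V2. Newly formed rods (0.84) gave 0.55 with no integration, 2.01 by marker score and 1.91 with P23H V2. Müller glia (0.94) gave 0.66 with cycle genes kept for clustering, 0.69 by marker score, 0.75 without the 8% of cells with the highest Scrublet scores, 1.13 after subtraction and 0.71 without *hmgb2a*. T lymphocytes (0.81) gave 1.12 by marker score and 1.49 without the 8%. The balance of mitosis to S phase in RPCs (0.37) gave 0.18 by marker score and 0.62 with P23H V2. The log2 ratio of the share of RPCs with at least 3 mitosis members (1.19) gave 1.85 by marker score and 0.50 with P23H V2. The cause of these shifts was not tested. Of the 22 members called in RPCs, 11 passed a ratio of 2. TMM factors gave 22 higher and 0 lower, and subtraction 16 higher and 3 lower. Assignment by marker score gave 14 higher and 1 lower, which was still counted as within the set limits.

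Leaving out *hmgb2a* or the cells with shared barcodes was chosen after seeing the data. The free RNA share, estimated from rhodopsin transcripts in horizontal cells, was 7.93% in P23H V3, 38.7% in P23H V2 and 23.3% in WT V3. The background profile came from barcodes removed for few genes, only 37 in P23H V3 and 51 in WT V3, against 3285 in P23H V2. No T lymphocyte value was obtained for P23H V2, and no share of cells after subtraction. No paired analysis was possible because each group had 1 library. Counting intervals do not cover variation between cells, fish or library preparations.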
